A study of Mus musculus with 25 samples.

Results

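The mouse embryonic stem (ES) cells described here carry the label TKO and were profiled by H3K27ac HiChIP without doxycycline (0 h) and after 24 h of doxycycline. The members are the 6 libraries whose titles name TKO, 3 at 0 h and 3 at 24 h, of the 25 libraries of the study. Per the labels, both groups are V6.5 ES cells grown in 2i medium, which holds inhibitors of MEK and GSK3, and they differ only in the 24 h of doxycycline. The labels do not spell out TKO. In the published study, as known from outside these files, it is a triple knockout of Klf2, Klf4 and Klf5 induced by doxycycline. Contact counts do not measure the transcripts or proteins of these genes, so the loss of the KLF proteins was not checked here. The labels do not say whether the TKO cells are 1 clone, nor whether the 3 libraries of a time are separate cultures, and p-values therefore measure only the spread between libraries, which may be technical. The 2 groups have no doxycycline-treated control without the knockout, so an effect of doxycycline itself cannot be told apart from that of the knockout.

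KLF2, KLF4 and KLF5 are zinc finger transcription factors that bind GC-rich promoter and enhancer DNA, and in naive ES cells they act in part redundantly in the circuit that holds pluripotency. KLF4 is also one of the factors used to reprogram fibroblasts. H3K27ac is an acetylated histone found at active promoters and enhancers. In HiChIP, neighbouring chromatin ends are ligated inside the nucleus and an antibody then pulls down the fragments that carry the mark, so a high count needs both the contact and the mark. A lower contact frequency and less acetylation at an anchor cannot be told apart from these counts.

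The deposited lists pair 10 kb bins of 1 chromosome, called anchors, and give a raw contact count for each library. At 0 h the 3 libraries held 110, 85.7 and 80.5 M contacts, as recovered from the counts and the counts per M contacts (CPM), and at 24 h they held 68.3, 102 and 81.2 M. The 0 h list held 93248 interactions and the 24 h list 84256, of which 67728 were in both and could be tested. A chi-square test over interactions did not tell libraries 2 and 3 at 0 h apart beyond sampling noise, nor libraries 1 and 3 at 24 h (adjusted p 0.057 and 0.099 over 6 pairs, chi-square per degree of freedom 1.01 for both, against 1.03 to 1.04 for the other pairs), so each of these 2 pairs was summed and counted as 1 sample. The 0 h pair was close to the threshold, with an unadjusted p of 0.048. The edgeR and DESeq2 tests therefore compare 2 samples with 2. ES cell identity could be read only through anchor bins: 8 of 10 ES marker genes had a bin with tested contacts, while Col1a1 and Thy1, which mark fibroblasts, had 1 listed interaction or none at each time. Over the 10 fibroblast markers 5 had a bin, with 13 listed interactions at 0 h and 9 at 24 h, of which Fn1 held 7 and 5.

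H3K27ac contacts were lost more often than gained after 24 h of doxycycline. Among the 67728 common interactions, the quasi-likelihood test of edgeR, adjusted by the Benjamini-Hochberg method, called 1384 lower at 24 h (2.04%) and 390 higher (0.576%), 2.62% in all at an adjusted p under 0.05. The median log2 change was -0.65 among those called lower and 0.71 among those called higher. When counts were summed over all common interactions of a 10 kb bin, 2475 of 40534 bins were lower (6.11%) and 1314 were higher (3.24%), 9.35% in all, with median log2 changes of -0.37 and 0.35. Each interaction enters 2 bins, so bins are not independent of each other. The common interactions held 2.94%, 3.10% and 3.06% of all contacts in the 0 h libraries and 2.68%, 2.81% and 2.74% in the 24 h libraries. These libraries did not overlap between the times, but no test was made, since 2 samples against 2 cannot give an exact two-sided permutation p below 0.33. Scaling factors from the trimmed mean of M values (TMM) place the median of all common interactions near 0 (log2 0.01). Scaling by contact totals alone put it at -0.10 and gave 155 higher and 2670 lower interactions, and 353 higher and 4589 lower bins. DESeq2 gave 1 higher and 120 lower interactions, and 83 higher and 527 lower bins, so the number of calls depends strongly on the test while lower calls outnumber higher calls in each. DESeq2 left some features without an adjusted p, among them the single interactions with the largest changes named below. Such features count as not called in DESeq2, though they were given no adjusted value.

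Interactions that KLF4 HiChIP had detected in ES cells were called lower more often than the others. Of the 67728 common interactions, 16800 were also in the separately deposited ES KLF4 list. Of these, 4.30% were called lower and 0.524% higher, with a median log2 change of -0.04. Of the other 50928, 1.30% were lower and 0.593% higher, with a median of 0.03. The median log2 CPM ratio of the KLF4-listed interactions lay below that of the others by -0.09 to -0.05 in the 4 pairings of a 0 h with a 24 h sample, while between replicates of 1 time the difference was -0.00 at 0 h and 0.03 at 24 h. The share of the common counts that lay in the ES KLF4 list was 34.4%, 34.5% and 34.6% at 0 h and 32.9%, 33.4% and 33.0% at 24 h, so every 24 h library was below every 0 h library, with no test for the same reason. More lower calls were not particular to the KLF4 list. Of the 50106 common interactions also in the deposited H3K27ac list of parental ES cells, 2.58% were lower and 0.601% higher. Of the 17622 not in that list, 0.516% were lower and 0.505% higher.

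KLF4-listed interactions were also stronger, with a median of 9.86 CPM against 6.63, and stronger interactions give the test more counts. When the common interactions were split by mean CPM into 4 classes of equal size, the difference in calls stood in the strongest class, where 7.69% of the KLF4-listed and 3.88% of the other interactions were lower. In the third class the shares were 1.67% and 1.71%, in the second 0.841% and 0.668%, and in the weakest 0% and 0.0775%. The change itself also went with strength. Over all common interactions the median log2 change was 0.065, 0.023, -0.0049 and -0.053 from the weakest class to the strongest. Lower calls made up 0.0709%, 0.697%, 1.70% and 5.71%, and higher calls 0.112%, 0.626%, 0.750% and 0.815%. Outside the KLF4 list the median was 0.066 in the weakest class and -0.024 in the strongest. These classes did not match strength fully. The median CPM of KLF4-listed and other interactions was 14.5 and 12.5 in the strongest class, and 8.50 and 8.35 in the third. The difference in median log2 ratio was below 0 in all 4 pairings in each class, from -0.03 to -0.01 in the weakest and from -0.08 to -0.05 in the strongest.

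The same order was seen in bins. Of bins with no ES KLF4 interaction, 3.09% were lower, against 6.06% of bins with 1, 10.4% of bins with 2 to 3 and 17.6% of bins with 4 or more. The share of bins called higher was between 2.94% and 3.73% in these 4 classes. Depth moved with this order, since the median count of a bin over the 6 libraries was 277, 501, 926 and 1656. When bins were split into 4 classes of equal size by their counts, the shares called lower among KLF4 anchor bins and other bins were 0.759% and 0.474% in the class with fewest counts, 3.19% and 3.14% in the second, 7.22% and 4.36% in the third and 16.5% and 9.12% in the class with most counts. In that last class 5.60% and 8.94% were higher. These classes did not match depth fully, since within the last class the median count was 1645 for KLF4 anchor bins and 1307 for the others.

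**Figure D1:**
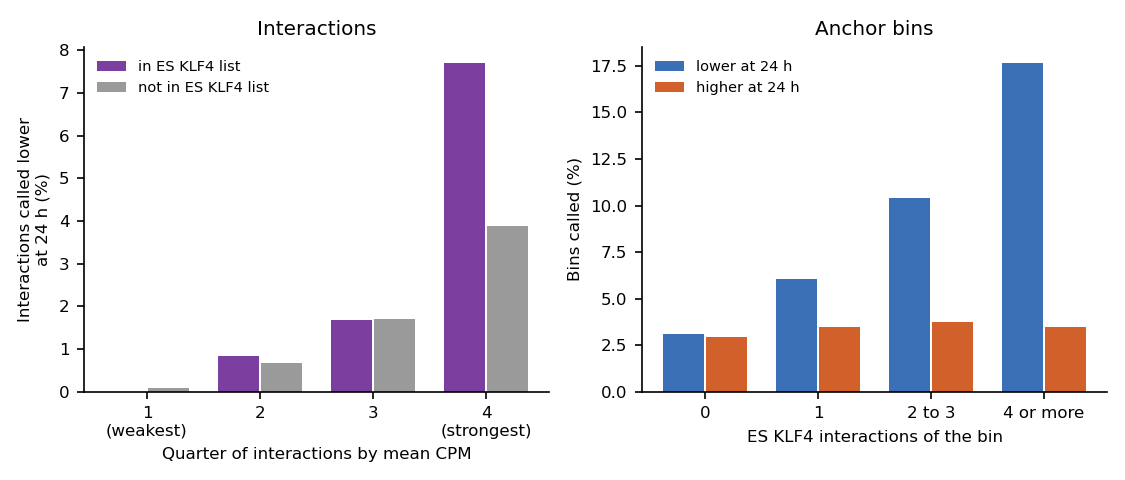
Left, percent of common interactions called lower at 24 h (edgeR, adjusted p under 0.05), by 4 equal classes of mean CPM, for interactions in the ES KLF4 list and for the others. Right, percent of 10 kb bins called lower or higher, by the number of ES KLF4 interactions of the bin. The share of bins called lower goes from 3.09% without a KLF4 interaction to 17.6% with 4 or more.

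The acetylation peaks that the authors listed beside each anchor moved with the contacts. Bins with a peak at 0 h only were lower in 7.51% and higher in 1.12% of cases, and bins with a peak at 24 h only were lower in 1.02% and higher in 5.46%. Bins with a peak at both times were lower in 9.60% and higher in 4.24%, and bins with no peak in 1.28% and 1.82%. Depth moved with these classes, with a median count of 819 in bins with a peak at both times, 347 and 338 in those with a peak at 0 h or 24 h only and 221 in those with none. Interactions with a peak of both times at both anchors made up 60.9%, 61.5% and 61.5% of the common counts at 0 h and 59.3%, 60.1% and 59.5% at 24 h. Of these 35466 interactions, 3.34% were lower, against 0.440% of the 25439 with such a peak at 1 anchor and none at the other. These shares were 0.0923% and 0.0399% in the weakest of 4 classes of mean CPM and 7.33% and 1.39% in the strongest. Interactions that ES Hi-C, which uses no antibody, had also listed were lower in 1.30% of cases, and those it had not listed in 2.86%. Interactions of 50 kb or more held 12.90%, 12.96% and 13.05% of common counts at 0 h and 12.85%, 12.86% and 12.75% at 24 h, a small difference in which the groups did not overlap.

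None of the bins of the 3 genes that the knockout removes passed the test. The Klf2 bin (chromosome 8, 72310001 to 72320000, mm10) had 10 listed interactions at each time, and its libraries had 8.01, 8.86 and 8.27 normalised contacts per M at 0 h and 8.45, 9.45 and 8.41 at 24 h. Here and below, normalised contacts are the counts of a bin's common interactions per M TMM-scaled contacts of the library. The 2 groups overlapped, and the log2 change was 0.09 (SE 0.06, adjusted p = 0.43, edgeR), turning to -0.0076 when each chromosome's contact total was used for scaling. The Klf5 bin (chromosome 14, 99290001 to 99300000) had 10 and 11 listed interactions, with 5.29, 5.45 and 5.48 at 0 h and 5.08, 5.13 and 4.91 at 24 h. Its 24 h values were all lower, but the log2 change of -0.10 (SE 0.07) did not pass the test (adjusted p = 0.45), nor did the value of -0.19 with contact totals (adjusted p = 0.15). The Klf4 bin (chromosome 4, 55530001 to 55540000) went from 6 listed interactions to 3, all 3 common to both times. Its libraries had 1.64, 1.91 and 1.83 at 0 h and 1.55, 1.38 and 1.56 at 24 h, a log2 change of -0.26 (SE 0.10, adjusted p = 0.072). The Klf4 bin passed with contact totals (log2 -0.36, adjusted p = 0.00665) and without interactions of 10 kb (log2 -0.59, adjusted p = 0.00012), and 1 of its 3 common interactions was called lower (adjusted p = 0.020).

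Beside Klf5, bins at lower coordinates gained contacts. In the 130 kb before the Klf5 bin, 5 of 13 bins were called higher and none lower, against 3.24% of all tested bins called higher, in a stretch chosen after its values were seen. The bin that starts at 99250001, 40 kb from the Klf5 bin, had 3.77, 3.90 and 4.06 normalised contacts at 0 h and 5.21, 4.88 and 5.10 at 24 h, with a log2 change of 0.37 (SE 0.07, adjusted p = 5.6e-06). The bin at 99230001 rose by log2 0.40 (adjusted p = 0.0018), while the bin between them did not pass (0.11, adjusted p = 0.48). Over the 14 bins, listed interactions numbered 100 at 0 h and 150 at 24 h. The bins at 99190001, 99270001 and 99280001, with log2 changes of 0.29, 0.18 and 0.31, lost their calls with contact totals (adjusted p 0.27, 0.61 and 0.12), and the first 2 of them also without 0 h library 2, 24 h library 2, 24 h library 3 and 1 other 0 h library each (adjusted p up to 0.20 and 0.32). The call at 99280001 was also lost without 0 h library 1 (adjusted p = 0.063) and that at 99230001 without 0 h library 2 (0.056). DESeq2 called the bin at 99250001 but none of the other 4 (adjusted p from 0.20 to 0.52), and none of the 5 passed on interactions of 50 kb or more (adjusted p from 0.080 to 0.83).

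Across the KLF and SP family, which share the zinc finger type and the GC-rich site, 16 of 22 genes had a tested bin, and 1 was called lower and none higher. Klf3, which encodes a repressor of the family, fell from 2.43, 2.26 and 2.57 normalised contacts to 1.41, 1.70 and 1.65 (log2 -0.59, SE 0.09, adjusted p = 1.3e-08), and its listed interactions went from 8 to 4. The family's median log2 change was -0.10, against -0.01 over all 8589 tested bins with a gene, of which 2.49% were higher and 6.51% lower. Klf9, the family's bin with most listed interactions, had 24 at 0 h and 25 at 24 h and did not pass (log2 -0.12, adjusted p = 0.26).

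Among pluripotency transcription factors the contacts of several gene bins fell while those of Pou5f1 did not. Of 14 tested bins, 4 were called lower and none higher, against 6.51% and 2.49% of all gene bins, and the median log2 change was -0.18. Bins with more counts were called lower more often, as given above. These 14 bins were not matched for counts, so their share cannot be told apart from an effect of depth. Nanog (chromosome 6, 122700001 to 122710000), a homeobox factor of the naive state, had 13.9, 14.5 and 14.5 normalised contacts at 0 h and 11.1, 12.5 and 11.7 at 24 h. All 24 h libraries lay below all 0 h libraries (log2 -0.26, SE 0.06, adjusted p = 0.00088), and listed interactions went from 22 to 18. Tfcp2l1 (chromosome 1, 118620001 to 118630000), a factor that acts downstream of LIF and STAT3, had 7.95, 7.70 and 7.91 at 0 h and 6.25, 6.76 and 6.15 at 24 h (log2 -0.29, SE 0.06, adjusted p = 0.00029). Its listed interactions went from 14 to 9. Tbx3, a T-box factor of the same circuit, had 7.81, 7.92 and 8.29 at 0 h and 6.17, 6.86 and 6.67 at 24 h (log2 -0.27, SE 0.06, adjusted p = 0.00088). The bin of Tbx3 lost its call in DESeq2 (adjusted p = 0.062). On interactions of 50 kb or more alone, neither Tfcp2l1 (log2 -0.11, adjusted p = 0.81) nor Tbx3 (log2 -0.19, adjusted p = 0.25) passed. Rest, a repressor of neural genes, fell by 0.23 on the log2 scale (adjusted p = 0.014), a call lost in DESeq2 (adjusted p = 0.26), without interactions of 10 kb (adjusted p = 0.52) and without 0 h library 2, 24 h library 2 or 24 h library 3 (adjusted p up to 0.12).

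Pou5f1, which encodes the POU factor OCT4, had 6.73, 6.74 and 7.32 normalised contacts at 0 h and 6.88, 7.43 and 7.04 at 24 h, and the groups overlapped (log2 0.06, SE 0.06, adjusted p = 0.70; -0.038 with contact totals). Sall4, a zinc finger factor, had the only 24 h values of the fixed genes that all lay above 0 h, at 10.99, 11.8 and 10.4 against 9.63, 10.2 and 10.2, with 15 listed interactions at 0 h and 19 at 24 h. Its log2 change of 0.17 (SE 0.06) did not pass (adjusted p = 0.065). The Sall4 bin passed with all 6 libraries kept separate (adjusted p = 0.037) and without 24 h library 3 (0.049), and its change was 0.075 with contact totals (adjusted p = 0.71) and 0.099 without 24 h library 2 (0.58). Zfp42, Prdm14, Mycn and Dppa5a had log2 changes between -0.18 and -0.17 that did not pass, with adjusted p of 0.056, 0.14, 0.14 and 0.054, and each of these 4 passed with contact totals (adjusted p 0.029, 0.021, 0.021 and 0.042). The Mycn bin had 16 listed interactions at 0 h and 9 at 24 h. Nr5a2 and Nr0b1 had at most 3 listed interactions at each time, and their log2 changes of -0.17 and -0.29 did not pass (adjusted p = 0.38 and 0.64).

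**Figure D2:**
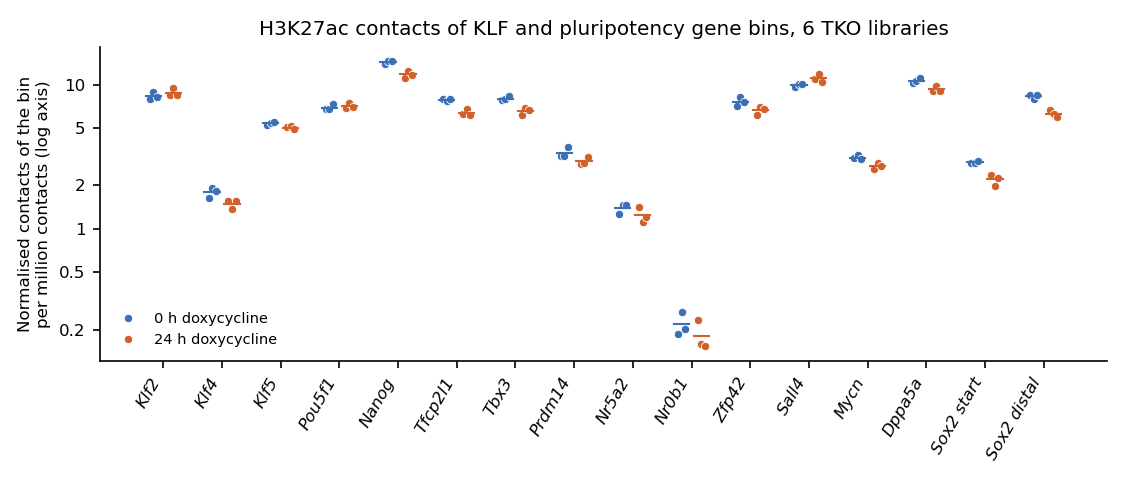
Normalised contacts per M (log axis) of the bins of KLF and pluripotency genes in the 6 TKO libraries, 3 points per time and their mean as a line. The 2 Sox2 positions are the bin of its RefSeq start and a bin 120 kb further on. Nanog, Tfcp2l1 and Tbx3 show 3 points at 24 h below the 3 at 0 h, and Klf2 and Pou5f1 show overlapping points.

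Sox2, which encodes the partner of OCT4 at many enhancers, carried no gene name in the deposited annotation and was placed by its RefSeq start. The start bin (chromosome 3, 34640001 to 34650000) had 2.86, 2.86 and 2.97 normalised contacts at 0 h and 2.37, 1.99 and 2.27 at 24 h (log2 -0.41, SE 0.08, adjusted p = 3.7e-05). The next 2 bins were also lower, by log2 -0.22 and -0.28. The bins 100, 110 and 120 kb further on, where a known distal enhancer cluster of Sox2 lies, fell by log2 -0.28, -0.31 and -0.42. The bin 120 kb away had 8.46, 8.01 and 8.52 at 0 h and 6.63, 6.21 and 5.93 at 24 h (SE 0.06, adjusted p = 1.0e-08). The 7 bins between the 2 ends did not pass, with log2 changes from -0.17 to 0.06. Over the 13 bins listed interactions numbered 146 at 0 h and 107 at 24 h. DESeq2 did not call the 3 bins at the start (adjusted p 0.067, 0.23 and 0.20) or the bin 100 kb away (0.057), and the bin after the start lost its call without 0 h library 3, 24 h library 2 or 24 h library 3 (adjusted p up to 0.088). On interactions of 50 kb or more the bin 110 kb away did not pass (log2 -0.22, adjusted p = 0.095), and the change 120 kb away was -0.28 (adjusted p = 0.041). Esrrb, another factor of the circuit, carried no gene name and was not analysed here.

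The gene bins with the largest decreases included those of Pramel6, Pramel7 and the start of Foxd3. Of the gene bins called lower, 557 of 559 had all 24 h libraries below all 0 h libraries in the deposited CPM, and of those called higher 111 of 214 had all above. The deposited CPM is not TMM-scaled, and its median log2 ratio of 24 h over 0 h was -0.14 to -0.05 in the 4 pairings. That offset makes the first condition easier to meet and the second harder, so the 2 counts cannot be compared. The 2 neighbouring PRAME-family genes Pramel6 and Pramel7, of which Pramel7 is known to keep DNA methylation low in naive ES cells, fell together. The Pramel6 bin (chromosome 2, 87500001 to 87510000) had 6.56, 6.98 and 7.44 normalised contacts at 0 h and 3.30, 3.53 and 3.63 at 24 h (log2 -0.99, SE 0.07, adjusted p = 7.3e-42). The Pramel7 bin (chromosome 2, 87490001 to 87500000) had 6.34, 6.71 and 6.46 and then 3.27, 3.46 and 3.69 (log2 -0.90, SE 0.07, adjusted p = 1.7e-34). All 7 bins of the 70 kb around both genes were called lower, with log2 changes from -1.14 to -0.50, and 12 of the 14 common interactions within it were called lower. This stretch was cut to the anchors of those 12 called interactions, and each of its 7 bins is such an anchor. These counts were therefore largely fixed by the choice of the stretch and are a description. The 14 interactions summed to 19.7, 20.9 and 21.3 normalised contacts at 0 h and 10.2, 10.8 and 10.9 at 24 h. Of the 14, 4 were in the ES KLF4 list, as were 24.8% of all common interactions.

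Foxd3, a forkhead factor that ES cells need, has its RefSeq start in a bin that the deposited annotation names Gm12688 (chromosome 4, 99650001 to 99660000). That bin had 4.34, 4.56 and 4.72 normalised contacts at 0 h and 2.32, 2.40 and 2.05 at 24 h (log2 -0.99, SE 0.08, adjusted p = 2.5e-35). On interactions of 50 kb or more alone, the Gm12688 bin had a log2 change of -0.11 and did not pass (adjusted p = 0.92). Its interaction with the bin at 99630001, 20 kb away, had 105, 102 and 92 raw counts at 0 h and 24, 39 and 29 at 24 h (log2 -1.45, SE 0.17, adjusted p = 1.2e-14). A230028O05Rik on chromosome 16 went from 2.87, 2.98 and 3.50 to 1.33, 1.77 and 1.53 (log2 -0.97, adjusted p = 9.6e-26), and its listed interactions from 9 to 3. The other 6 of the 10 gene bins with the largest decreases each had 1 common interaction and at most 0.969 normalised contacts in any library. They were Trib1, which encodes a pseudokinase (log2 -1.05), AY512931 with the melatonin receptor gene Mtnr1a (-1.04), the lectin gene Clec4a1 (-0.93), Tifab (-0.93), the antiviral synthetase gene Oas1a (-0.84) and Lekr1 (-0.84). Their adjusted p values ran from 3.7e-07 for Clec4a1 to 0.00038 for Oas1a.

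The promoters of 5 of these genes are shown because their bins fell and KLF factors are known to bind CACCC-type sites. Each is the 250 bases before the RefSeq start (GRCm38.p6, the assembly of mm10), 5′ to 3′ on the strand of the gene, with matches to GGGNGTGG or its reverse complement CCACNCCC in capitals. They lie at chr4:99656049-99656298 (Foxd3, plus strand), chr1:118627695-118627944 (Tfcp2l1, plus), chr6:122707239-122707488 (the first of 2 Nanog starts, plus), chr2:87506315-87506564 (Pramel6, plus) and chr2:87492419-87492668 (Pramel7, minus).
Foxd3: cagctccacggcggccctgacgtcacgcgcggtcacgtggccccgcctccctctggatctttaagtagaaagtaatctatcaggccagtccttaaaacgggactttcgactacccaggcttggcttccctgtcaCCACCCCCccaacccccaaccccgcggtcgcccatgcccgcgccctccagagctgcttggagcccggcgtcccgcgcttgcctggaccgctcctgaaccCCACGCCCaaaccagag
Tfcp2l1: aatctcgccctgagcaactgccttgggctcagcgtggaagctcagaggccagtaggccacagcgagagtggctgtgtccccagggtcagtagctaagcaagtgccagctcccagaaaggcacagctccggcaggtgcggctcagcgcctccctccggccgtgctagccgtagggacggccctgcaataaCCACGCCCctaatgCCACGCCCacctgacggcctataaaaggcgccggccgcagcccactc
Nanog: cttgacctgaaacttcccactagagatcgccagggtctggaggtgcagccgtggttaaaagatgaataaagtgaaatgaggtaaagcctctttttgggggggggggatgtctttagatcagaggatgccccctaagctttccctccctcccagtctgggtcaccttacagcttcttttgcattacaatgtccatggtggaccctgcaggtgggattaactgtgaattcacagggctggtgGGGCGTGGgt
Pramel6: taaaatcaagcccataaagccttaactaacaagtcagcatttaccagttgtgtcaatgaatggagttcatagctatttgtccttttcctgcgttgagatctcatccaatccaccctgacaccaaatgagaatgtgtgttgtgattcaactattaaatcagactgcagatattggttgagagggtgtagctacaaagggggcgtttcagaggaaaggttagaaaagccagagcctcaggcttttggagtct
Pramel7: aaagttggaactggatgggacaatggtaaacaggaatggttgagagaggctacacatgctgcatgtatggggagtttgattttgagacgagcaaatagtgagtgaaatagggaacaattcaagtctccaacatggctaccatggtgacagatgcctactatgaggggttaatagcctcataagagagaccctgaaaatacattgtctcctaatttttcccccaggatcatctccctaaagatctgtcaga
Foxd3 and Tfcp2l1 held 2 matches each, this Nanog promoter held 1, and those of Pramel6 and Pramel7 held 0 in this window. The promoters of Sox2 and Tet2, whose bins were also called lower, are not shown and held 0. The second Nanog start, not shown either, held 2. Searched on both strands, the motif was in 5214 of 32851 RefSeq promoters of this length (15.9%). Gene bins with a matched promoter that held it were lower in 6.56% of 1739 cases and higher in 2.47%, and those without it were lower in 6.20% of 4903 and higher in 2.65%. The median log2 change was -0.01 in both. A match is a description of the letters and not a measured binding site.

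The gene bins with the largest increases held fewer contacts than Pramel6, Pramel7 or the Foxd3 bin. Ctsd, which encodes the lysosomal protease cathepsin D, had 0.861, 0.827 and 0.889 normalised contacts at 0 h and 1.52, 1.52 and 1.56 at 24 h (log2 0.84, SE 0.12, adjusted p = 2.3e-10). Its neighbour Ifitm10 (chromosome 7, 142370001 to 142380000, the bin beside Ctsd) had 0.753, 0.651 and 0.759 and then 1.19, 1.26 and 1.40 (log2 0.83, adjusted p = 1.4e-08), and its listed interactions went from 2 to 5. Igdcc4, an immunoglobulin superfamily gene, had 1.43, 1.32 and 1.44 at 0 h and 2.14, 2.19 and 2.65 at 24 h (log2 0.73, SE 0.09, adjusted p = 1.7e-12). Iba57, which acts in iron-sulfur cluster assembly, rose by log2 0.69 (adjusted p = 1.6e-06). The other 6 of the 10 were Kptn (log2 0.84), the ubiquitin ligase subunit gene Ubac1 (0.75), the calmodulin-like gene Calml4 (0.73), A930018P22Rik (0.69), Tpd52l2 (0.69) and AC160124.1 (0.68), with at most 0.945 normalised contacts in any library and 1 or 2 common interactions each. The call of AC160124.1 was lost with contact totals (adjusted p = 0.055) and without 0 h library 2 or 3 or 24 h library 1 or 3 (up to 0.089). Those of Ubac1 and Tpd52l2 were lost without 0 h library 1 or 24 h library 3 (adjusted p up to 0.090 and 0.094), and that of A930018P22Rik without 0 h library 3 or 24 h library 2 (up to 0.19).

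**Figure D3:**
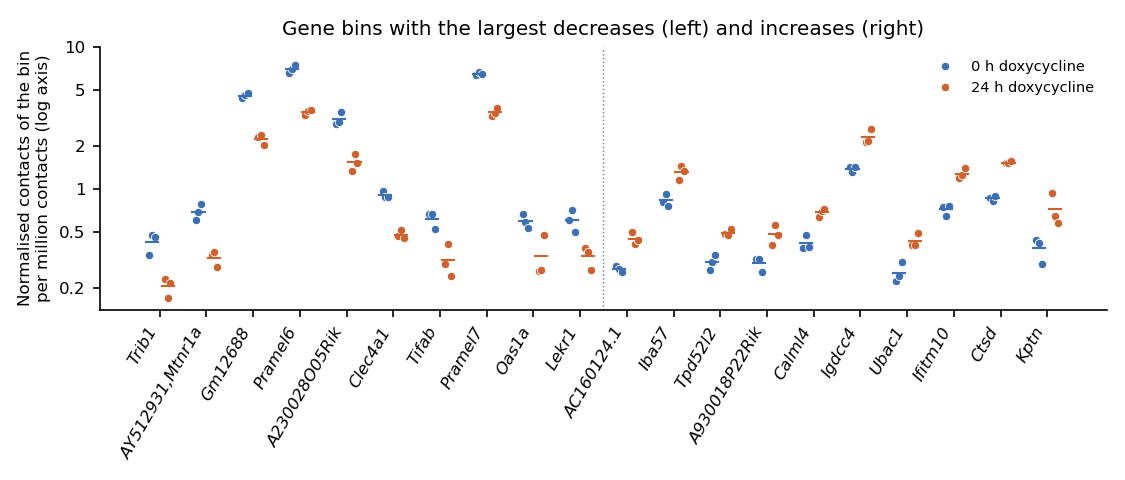
Normalised contacts per M (log axis) of the 10 gene bins with the largest decreases (left of the dotted line) and the 10 with the largest increases (right), 3 points per time and their mean as a line. Pramel6, Pramel7 and the Gm12688 bin that holds the Foxd3 start stand at 4.34 to 7.44 at 0 h, above the other bins of the plot.

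Called interactions that share anchors formed 692 separate networks among those lower and 294 among those higher. Of these, 61 of the lower and 3 of the higher networks held 5 or more interactions, while 412 and 237 were single interactions. The networks were examined after the calls were known and are a description. The largest lower network lay on chromosome 2 from 17930001 to 18060000, over Skida1 and Mllt10, a partner of the DOT1L methyltransferase. There 16 of 26 common interactions were called lower, the sums were 23.7, 24.7 and 25.5 normalised contacts at 0 h and 15.5, 15.6 and 15.1 at 24 h, and 5 of the 26 were in the ES KLF4 list. All 13 bins, each an anchor of a called interaction through the choice of the stretch, were lower, from log2 -1.02 to -0.33. The 3 largest higher networks were on chromosome 13 from 34240001 to 34310000 (8 of 11 common interactions called higher), chromosome 17 from 56680001 to 56750000 over Ndufa11 and Vmac (8 of 9) and chromosome 2 from 26020001 to 26090000 over Ubac1 (6 of 7). Their sums at 24 h lay above all 0 h sums, for example 3.26, 3.21 and 3.06 against 5.04, 5.34 and 5.33 on chromosome 13. None of the interactions in these 3 stretches was in the ES KLF4 list, which held 24.8% of all common interactions. Some other higher networks did hold such interactions, such as 5 of 25 on chromosome 8 from 69910001 to 70000000.

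**Figure D4:**
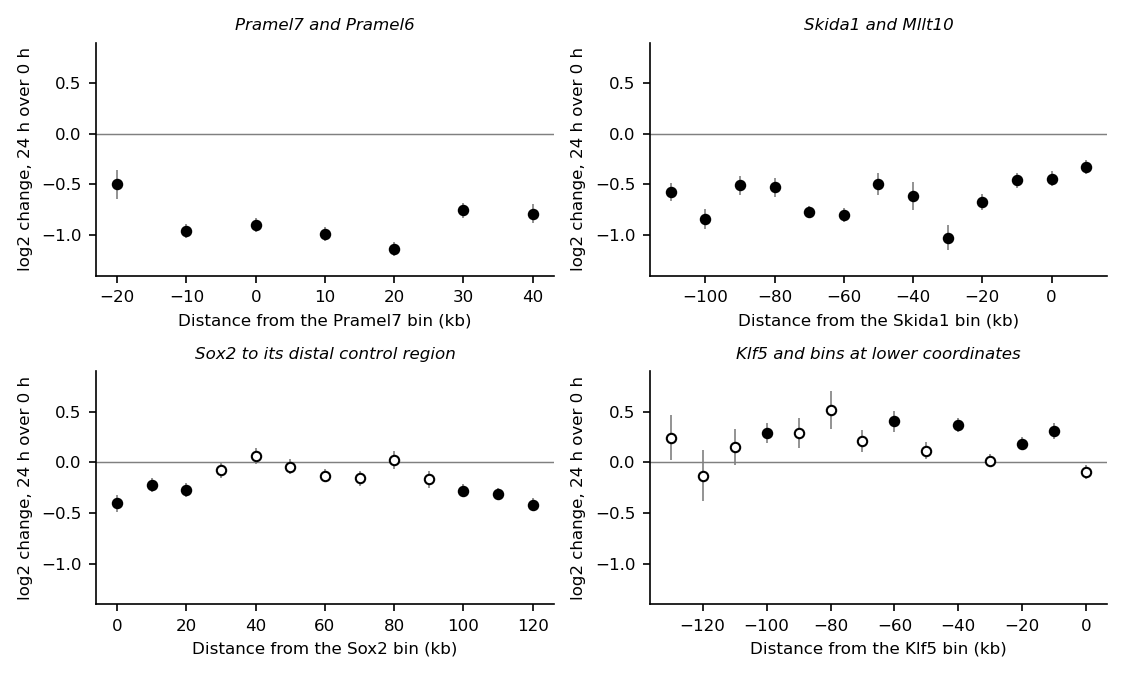
Log2 change of each 10 kb bin (24 h over 0 h, edgeR, bars show SE) against distance from the named bin, with filled points for bins called at adjusted p under 0.05. All 7 Pramel7 bins and all 13 Skida1 bins are called lower, 6 of 13 Sox2 bins are called lower at the 2 ends of the stretch, and 5 of 14 Klf5 bins are called higher. The Pramel7 and Skida1 stretches were cut to anchors of interactions already called lower.

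Of the 10 single interactions with the largest changes, 4 had a gene name at an anchor, as had 44.9% of all common interactions. The strongest fall was between chromosome 2 bins 55210001 and 55220001, with 137, 117 and 123 raw counts at 0 h and 23, 41 and 33 at 24 h (log2 -1.71, SE 0.16, adjusted p = 3.6e-23). An interaction of 280 kb on chromosome 4, between 141280001 and 141560001, had 65, 54 and 55 counts and then 13, 24 and 17 (log2 -1.44, SE 0.21, adjusted p = 1.7e-08). The others, besides the Foxd3 interaction above, were on chromosome 11 between 46530001 and 46560001 (log2 -1.44) and on chromosome 16 between 25030001 and 25060001 (log2 -1.39). The largest rise was on chromosome 17 between 56680001 and 56700001, with 30, 23 and 19 counts at 0 h and 34, 65 and 41 at 24 h from libraries of unlike depth (0.269, 0.253 and 0.225 against 0.529, 0.651 and 0.527 normalised contacts, log2 1.20, SE 0.21, adjusted p = 4.1e-06). The bin of 0610012D04Rik had 2 interactions among the 5 that rose most, over 30 and 50 kb (log2 1.18 and 1.14). The other two were between the bins of Kdelr1 and Grin2d and of Syngr4 and Tmem143 on chromosome 7 (log2 1.14, adjusted p = 1.2e-05) and on chromosome 19 between 9920001 and 9970001 (log2 1.13, adjusted p = 0.0078), whose call was lost without 0 h library 2 or 24 h library 2 (adjusted p 0.089 and 0.38).

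The other gene lists are given beside all gene bins, of which 6.51% were lower and 2.49% higher, and differences between lists were not tested. The lists were not matched for the counts of their bins either. Of 15 tested ES cell genes, 2 were lower and none higher (median log2 -0.12): Tet2, a 5-methylcytosine dioxygenase gene, went from 4.24, 4.57 and 4.39 to 3.44, 3.34 and 3.26 (log2 -0.39, adjusted p = 3.4e-06), and Jarid2, a Polycomb partner gene, from 5.78, 6.17 and 6.26 to 4.46, 4.87 and 4.99 (log2 -0.33, adjusted p = 4.7e-05). On interactions of 50 kb or more neither Tet2 (log2 -0.11, adjusted p = 0.91) nor Jarid2 (log2 -0.39, adjusted p = 0.11) passed. Of 15 tested genes of the LIF, FGF-ERK and Wnt pathways, 5 were lower and 1 was higher (median -0.08). Il6st, which encodes the gp130 subunit of the LIF receptor, fell by 0.36 on the log2 scale (adjusted p = 9.2e-06), the FGF signalling inhibitor gene Spry2 by 0.44 (1.3e-05) and the Wnt effector gene Tcf7l2 by 0.54 (0.0035). The bin that the receptor gene Fgfr2 shares with Ctbp2 in the deposited annotation fell by log2 0.25 (adjusted p = 0.0029). It is called Fgfr2 below, though its fall cannot be assigned to either gene. The fifth was the kinase gene Pim1 (log2 -0.25). Lifr, the other LIF receptor subunit, was higher by log2 0.25 (adjusted p = 0.019), a call that contact totals ended (adjusted p = 0.31), as did leaving out 0 h library 1 or 2 or 24 h library 2 or 3 (up to 0.10). Pim1 and Tcf7l2 lost their calls without 0 h library 3 or 24 h library 3 (adjusted p up to 0.076 and 0.19), and Fgfr2 without interactions of 10 kb (log2 -0.063, adjusted p = 0.75). DESeq2 did not call Spry2, Fgfr2, Pim1 or Lifr (adjusted p 0.54, 0.19, 0.21 and 0.37), and on interactions of 50 kb or more Spry2, Fgfr2 and Pim1 did not pass (0.13, 0.95 and 0.49).

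Of 7 tested formative and primed genes, Etv4 was higher (log2 0.29, adjusted p = 0.0083, lost with contact totals at 0.18) and Etv5 lower (log2 -0.22, adjusted p = 0.017), both ETS factors of FGF signalling, and DESeq2 called neither (0.30 and 0.36). Etv4 also lost its call without 0 h library 1 or 24 h library 3 (up to 0.083), and Etv5 without 0 h library 3 or 24 h library 1 (up to 0.19) and on interactions of 50 kb or more (log2 0.087, adjusted p = 0.89). Among 15 tested targets of p53, a DNA damage response factor, 3 were higher and none lower, against 2.49% and 6.51% of all gene bins, with a median log2 of 0.12. Mdm2, which encodes the ubiquitin ligase of p53, went from 2.52, 2.98 and 2.22 to 3.08, 3.18 and 3.65 (log2 0.36, SE 0.08, adjusted p = 0.00015). Its 24 h values all lay above the 0 h values, though DESeq2 did not call it (adjusted p = 0.10). Trp53inp1 (log2 0.22) and Btg2 (log2 0.23, with overlapping groups) passed narrowly and lost their calls with contact totals (adjusted p 0.42 and 0.41), in DESeq2 (0.38 and 0.46) and without 0 h library 1, 0 h library 2, 24 h library 2 or 1 other 24 h library each (up to 0.13 and 0.31). Neither passed without interactions of 10 kb (0.70 and 0.17), and Btg2 did not pass with the replicate number as a block (0.062). Cdkn1a, the cell cycle inhibitor gene of this list, had a log2 change of -0.05 that did not pass.

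Of 16 tested genes of loop and coactivator proteins, 1 was lower, a share of 6.25% against 6.51% of all gene bins. It was Rad21, a cohesin subunit gene, which went from 4.76, 4.997 and 5.53 to 3.44, 4.06 and 3.73 (log2 -0.41, adjusted p = 3.25e-07) but did not pass on interactions of 50 kb or more (log2 -0.43, adjusted p = 0.44). Ctcf and Ep300 had log2 changes of 0.00 and 0.09 that did not pass. None of 12 housekeeping genes passed (median -0.02). The ribosomal protein list was picked by names starting with Rpl or Rps and a digit. It therefore also holds other genes, such as Rps19bp1 and the S6 kinase genes Rps6ka1 and Rps6ka2. Of its 83 tested bins 1 was higher (Rpl36, log2 0.40) and 2 were lower (Rps12, -0.42, and Rps20, -0.28), with a median of 0.00, and DESeq2 called none of these 3. The call of Rps20 was also lost without 0 h library 1 or 24 h library 3 (adjusted p up to 0.17). Among markers of other cell types, 6 bins were tested. Fn1 went from 4.98, 5.42 and 5.48 to 3.16, 3.73 and 3.94 (log2 -0.53, adjusted p = 1.2e-11), and the trophoblast factor gene Tfap2a was also lower (log2 -0.33, adjusted p = 0.0013, though 0.25 in DESeq2). Gata6, a primitive endoderm factor gene, had 4 listed interactions at 0 h and 1 at 24 h (log2 -0.45), and did not pass. The fibroblast marker Vim, with 1 listed interaction at each time, went the other way from Fn1, from 0.314, 0.221 and 0.285 normalised contacts to 0.434, 0.441 and 0.359, and did not pass (log2 0.58, SE 0.21, adjusted p = 0.068). Nes and Pdgfrb did not pass either.

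**Figure D5:**
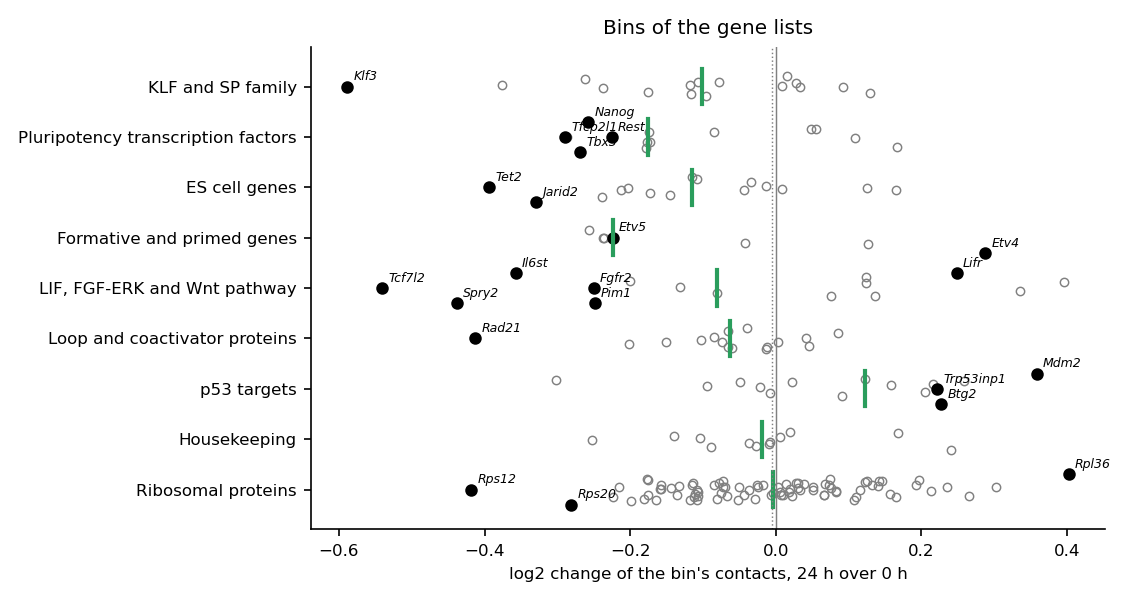
Log2 change (24 h over 0 h) of the bins of each gene list, with filled, named points for bins called at adjusted p under 0.05 (edgeR), open points for the others, and a green bar at the list's median. Among the 9 lists plotted, which leave out the cell type markers, the median is lowest in the formative and primed list (-0.22) and highest in the p53 targets (0.12), against -0.01 over all gene bins (dotted line). The ribosomal protein list was picked by name and also holds other genes, such as Rps6ka1.

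Presence in the 2 deposited lists gave a second view, with 1 list per time and no replicate check. Of the 24 h list, 80.4% was also listed at 0 h (95% Wilson interval 80.1 to 80.7), and of the 0 h list 72.6% was also listed at 24 h (72.3 to 72.9). Intervals cover counting error only. The 25520 interactions in the 0 h list alone were weak, with a median mean CPM of 4.601 against 7.47 for the common interactions, as were the 16528 in the 24 h list alone (4.71). Of the common interactions 24.8% were in the ES KLF4 list, against 7.14% of those in the 0 h list alone (6.83 to 7.46) and 5.42% of those in the 24 h list alone (5.09 to 5.78). Of those in the 0 h list alone 40.5% spanned 50 kb or more, against 30.02% of those in the 24 h list alone. The 2 lists required a CPM above 3 within each chromosome, which stands for a mean of 20.2 counts on chromosome 1 and 7.08 on chromosome 19, so the same CPM rests on fewer counts on small chromosomes.

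By number of listed interactions, 5011 of 10485 gene bins lost and 2504 gained. The gene bins held 48331 listed interactions at 0 h and 42490 at 24 h. The count was not made with lists of equal length, so an excess of losses goes with the longer 0 h list. The largest losses were at 2410152P15Rik (33 to 14), Gstp2, a glutathione transferase gene (32 to 18), Pdzd7 with Sfxn3 (20 to 6), Eif2b5, a translation initiation factor subunit gene (31 to 19), and Rnf138, a ubiquitin ligase gene (26 to 14). These numbers did not always go with the common counts. Eif2b5 went from 7.41, 8.60 and 8.30 normalised contacts to 5.33, 5.60 and 4.92 (log2 -0.59, adjusted p = 1.7e-16), 2410152P15Rik changed by log2 -0.52 (adjusted p = 8.2e-12; on interactions of 50 kb or more -0.19 and 0.36) and Rnf138 by -0.42 (adjusted p = 5.0e-08). Gstp2 (log2 -0.13, adjusted p = 0.27) and Pdzd7 with Sfxn3 (log2 -0.10, adjusted p = 0.62, overlapping groups) did not pass. The largest gains were at Ms4a10 (5 to 15), the growth arrest gene Gadd45g (3 to 11), the ADP-ribose hydrolase gene Oard1 (6 to 13), 0610012D04Rik (12 to 19) and the bin of Il25 and Cmtm5 (6 to 12, tied with 7 others). 0610012D04Rik went from 3.66, 3.21 and 3.24 to 5.11, 5.04 and 4.88 (log2 0.56, adjusted p = 6.3e-13) and the bin of Il25 from 2.74, 2.42 and 2.42 to 3.41, 3.60 and 3.41 (log2 0.45, adjusted p = 2.9e-07). Ms4a10 and Oard1 were higher by log2 0.39 and 0.31, calls lost with contact totals (adjusted p 0.11 and 0.095), for Oard1 in DESeq2 (0.11) and, for Ms4a10, without 0 h library 1, 24 h library 2 or 24 h library 3 (up to 0.11), and Gadd45g did not pass (log2 0.31, adjusted p = 0.24).

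The strongest interactions in the 0 h list alone with a gene at an anchor were at Tmc1, Ccdc166 with Mapk15, Tmem216, Kif11 and Pdzd7 with Sfxn3, with mean CPM values from 17.9 to 20.3, each over 10 kb. Those in the 24 h list alone were 2 interactions of the bin of Sfi1 on chromosome 11, at 57.7 and 45.0 CPM, and interactions at Erlin1, Psat1 and Gucy2g with Acsl5, at 15.5 to 17.9 CPM. Within 1 bin, the list of the other time held 4 interactions for Kif11 and 3 each for Pdzd7 with Sfxn3, Erlin1 and Psat1. It held 1 for the Sfi1 interaction at 57.7 CPM and none for the rest. Of these 10 interactions, 9 were also in the H3K27ac list of parental ES cells, and the Tmc1 interaction was not. Over all interactions in the 0 h list alone 33.2% were in that list, over those in the 24 h list alone 27.03%, and over the common interactions, which were stronger, 74.0%. The deposited CPM is per chromosome, so a ranking across chromosomes favours small ones. The named interactions at Tmc1, Tmem216, Kif11, Pdzd7, Erlin1, Psat1 and Gucy2g all lay on chromosome 19.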

How the data were processed

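H3K27ac HiChIP of TKO cells was analysed from 2 deposited interaction lists, 1 for 0 h and 1 for 24 h, with 3 libraries each. Reads were aligned with Bowtie2 2.2.3 to mm10, per the submitters' processing notes; the contact caller is not given in the sources used here. Per the file headers, each interaction of 2 bins of 10 kb carries raw counts and CPM per library, 1 p-value and gene and peak names. The deposited CPM is the authors' count per M contacts of the same chromosome, so count over CPM gave the contact totals. Every deposited CPM was above 3 and every deposited p-value under 0.1. The 26 other per-sample columns of these and the compared lists were not used.

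Counts of the 67728 interactions in both lists, and their sums per bin, were tested with edgeR 4.0.16 (quasi-likelihood, TMM on contact totals, filterByExpr, which removed none, Benjamini-Hochberg over all tested features, adjusted p under 0.05). The 2 groups took their libraries from the sample titles. A feature listed at 1 time only has no value at the other and was not tested. Library pairs that a chi-square test could not tell apart were summed (adjusted p 0.057 and 0.099). Alternatives were other scalings, DESeq2 1.42.0, each library left out, libraries kept separate with and without the replicate number as a block, and minimum anchor distances. The fit was checked on simulated counts.

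Named genes were a fixed list of 16 (14 have an annotated bin), the 10 gene bins and 5 interactions with the largest changes in each direction whose groups did not overlap in CPM, the 5 largest changes in number of listed interactions, the 5 strongest interactions of each list alone, and called members of the gene lists. Klf and Sox2 neighbourhoods, Foxd3 and other list members that did not pass were named after their values were seen. The members, lists and tests were chosen with earlier results of these data known. RefSeq promoters matched 73.9% of gene and bin pairs by symbol, and 94.5% of these started in the same bin.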

Additional observations from a re-analysis of the deposited data

How the results depend on the processing

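The excess of lower over higher calls stood in each setting tried, while the number of calls did not. Called interactions (1774) numbered 2825 with contact totals, 2771 with totals of each chromosome, 121 in DESeq2, 882 with anchors at least 20 kb apart, 112 at 50 kb or more, and 1028 to 1205 with 1 library left out. Called bins (3789) numbered 610 in DESeq2, 2021 at 20 kb, 394 at 50 kb, and 2551 to 3260 with 1 library left out. The causes were not tested. Fewer features were tested at 20 and 50 kb, and the percent called was also lower there. It was 1.89% and 0.849% of interactions, against 2.62%, and 6.12% and 3.37% of bins, against 9.35%. DESeq2 gave some features no adjusted p. Its unadjusted p was under 0.05 for 1731 interactions and 2625 bins, against 9218 and 8513 in edgeR. The share of the 24 h list found at 0 h (80.4%) was 94.3% when anchors could lie 1 bin away, 77.5% with lists of equal length, 82.0% with 1 count minimum for all chromosomes, 88.3% at a deposited FDR under 0.1 and 72.7% at 50 kb. The share of the 0 h list found at 24 h (72.6%) was 90.6%, 77.5%, 74.5%, 60.1% and 56.1% in the same order. Values that turned sign were log2 -0.0076 for Klf2 with chromosome totals, -0.038, -0.032 and -0.0081 for Pou5f1 with contact totals, chromosome totals and at 50 kb, and, at 50 kb, 0.0037 for Prdm14, 0.0080 for Mycn, 0.32 for Pdzd7 with Sfxn3, 0.084 for Rest, 0.087 for Etv5, -0.25 for Trp53inp1 and -0.067 for the Klf5 neighbour at 99270001. Of 62 called named bins, 10 lost their call with contact totals. Of the 57 of them with a value at 20 kb 10 lost it, and of the 34 with a value at 50 kb 21 lost it, 4 of these with a change of sign. Of the 45 of them with an adjusted p in DESeq2, 24 lost their call there, and none of the 10 named interactions had such a p.

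Deviations of same-numbered libraries from the mean of their time correlated between -0.02 and 0.00. Libraries of 1 time differed little beyond sampling noise (chi-square per degree of freedom 1.01 to 1.04). Such deviations would correlate little even in paired libraries, so whether the replicate numbers pair them was not settled. With the number as a block, on separate libraries, 2024 interactions and 4185 bins were called, against 1947 and 4095 without it.

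Depth limits single interactions: the median count of a listed interaction in a library was 22 to 35, and the CPM minimum leaves out weaker contacts.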

Other observations

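On chromosome 11, the stretch from 3100001 to 3210000 around Sfi1 held 5 listed interactions at 0 h and 19 at 24 h, while the parental ES H3K27ac list held 17 there, the ES KLF4 list 8, the fibroblast H3K27ac list 7 and the ES Hi-C list 28. The stretch was chosen after its values were seen, and interactions in 1 list only have no value at the other time.

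Chromosomes differed in the share of bins called. On chromosome 13, 9.57% of bins were lower and 2.04% higher, and on chromosome 6 8.52% and 2.81%. On chromosome 7 the order was the other way, with 5.05% lower and 6.05% higher, and it was the only one of the 20 with more bins called higher than lower. The median log2 change was -0.05 on chromosome 13 and 0.04 on chromosomes 7 and 19. These shares come from 1 fit over all chromosomes, and differences between chromosomes were not tested.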
